A study of Xenopus laevis with 3 samples.

Results

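The 9 genes described here were grouped under the name of hair bundle genes. Each had a probe set of its own on the Xenopus laevis array. They are cib2, ush1c, eps8, triobp, rdx, clic5, myo6, myo1a and elmod3. Members were chosen by gene symbol, as the probe sets whose annotated symbol, without its homeolog suffix, was one of these 9 names. This found 9 probe sets of 32475 frog probe sets, and 9 genes of 9240 annotated genes. RNA came from pooled inner ears of larval animals at stages 56 to 58, aged 38 to 44 days after fertilization, with no treatment and no second condition. Replicates 1, 2 and 3 held ears of 10, 7 and 8 animals and were hybridized to 1 array each. Values are GCRMA values, that is, log2 intensities corrected for background, normalized across the arrays and summarized over the probes of each probe set. A probe set was called detected when its mean was above 4, the expression threshold of the study, in limma's one-sided test with an adjusted p under 0.05.

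The hair bundle is the mechanosensitive organelle of the hair cell, a staircase of actin-filled stereocilia that rises from an actin plate at the top of the cell. Links between neighbouring stereocilia pull on ion channels at their tips when sound or head movement deflects the bundle. Its proteins can be ordered by place. Some belong to the channel and tip link complexes, some cap or bundle the actin core, some anchor the membrane to the core at the base, and myosins move along or hold the actin. The inner ear samples hold many cell types besides hair cells, and most of the 9 genes are also known from other epithelia, so the values describe the whole dissected ear. In such bulk samples fewer cells of a type and less RNA per cell cannot be told apart.

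All 9 probe sets were detected, and each was above 4 on all 3 arrays. The array value closest to the threshold was 4.51, in myo1a.L. By annotated symbol, each gene was represented by 1 probe set and therefore by 1 copy of the duplicated frog genome. This was the L copy for eps8, triobp, myo6 and myo1a and the S copy for ush1c, cib2, clic5, rdx and elmod3. Among all frog probe sets 63.1% were called above 4 and 33.6% below 4. Among all annotated genes 78.7% had at least 1 probe set above 4, and among the 5304 genes that, like the members, had exactly 1 probe set the share was 72.9%. Detection of a gene is thus common on these arrays, and 9 of 9 is set beside those shares without a test. The members were chosen with earlier results of these data known, so the comparison is a description only. The levels of different probe sets are not ranked against each other, because probes differ in their affinity.

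**Figure D1:**
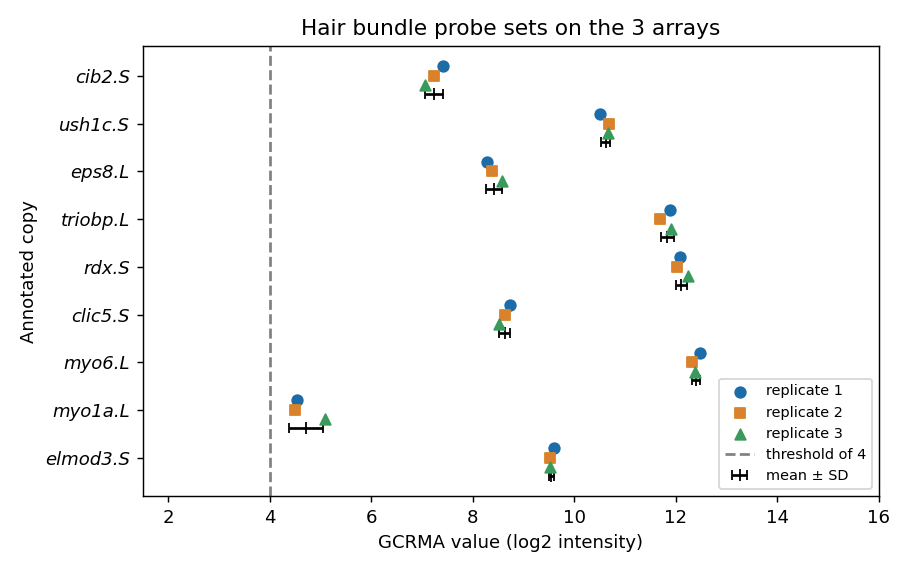
GCRMA value (log2 intensity, horizontal axis) of the 9 hair bundle probe sets on the arrays of replicates 1, 2 and 3 (points), with the mean and SD over the 3 arrays in black and the threshold of 4 as a dashed line. Every point lies to the right of the threshold, and myo1a.L lies nearest to it, with a mean of 4.72.

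Of the channel and tip link proteins, cib2 and ush1c were detected. The gene cib2 encodes a calcium-binding EF-hand protein that in mouse and zebrafish is needed for the mechanotransduction current and binds TMC channel proteins. Its probe set, cib2.S, had GCRMA values of 7.41, 7.24 and 7.07 on the arrays of replicates 1, 2 and 3. They averaged 7.24 ± 0.17 (SD, n = 3), with a moderated 95% interval of 6.85 to 7.63. The 3 arrays were spread evenly over 0.34 log2 units, and the whole interval lay above the threshold (limma, adjusted p = 3.3e-05). The gene ush1c encodes harmonin, the PDZ scaffold that ties the tip link to the actin core and whose human orthologue is a gene of Usher syndrome. The probe set of ush1c.S had 10.51, 10.68 and 10.66, a mean of 10.62 ± 0.09 (SD, n = 3). Replicates 2 and 3 lay together and replicate 1 slightly below them, and the moderated 95% interval was 10.46 to 10.78 (limma, adjusted p = 2.6e-07).

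Both genes of the actin core, eps8 and triobp, were detected. Eps8 caps and bundles actin filaments and in mouse is carried to the tips of stereocilia, where it takes part in setting their length. The values of eps8.L were 8.27, 8.39 and 8.58, with a mean of 8.41 ± 0.15 (SD, n = 3) and replicate 3 highest. The moderated 95% interval was 8.12 to 8.71, far from the threshold (limma, adjusted p = 4.42e-06). Triobp bundles actin in the rootlets that anchor stereocilia in the top of the cell. Its L copy, triobp.L, had 11.89, 11.68 and 11.91, a mean of 11.83 ± 0.13 (SD, n = 3), with replicates 1 and 3 nearly equal and replicate 2 lowest (limma, adjusted p = 2.29e-07).

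The base of the bundle was represented by rdx and clic5. Radixin, the product of rdx, is an ERM protein that links the membrane to actin, and clic5 encodes a chloride intracellular channel protein that lies with radixin at the base of stereocilia in mouse. For rdx.S the arrays gave 12.08, 12.02 and 12.23, a mean of 12.11 ± 0.11 (SD, n = 3). Replicate 3 was highest, by 0.22 log2 units over the lowest array (limma, adjusted p = 1.8e-07). For clic5.S they gave 8.74, 8.63 and 8.52, a mean of 8.63 ± 0.11 (SD, n = 3). Here replicate 3 was lowest and replicate 1 highest, and the moderated 95% interval was 8.38 to 8.88 (limma, adjusted p = 2.2e-06).

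The myosins lay far from the threshold in myo6 and close to it in myo1a. Myo6 encodes the myosin that moves towards the minus end of actin filaments, and it is found in the actin plate and at the tapering base of stereocilia. On the arrays myo6.L had 12.48, 12.32 and 12.37, a mean of 12.39 ± 0.08 (SD, n = 3), and its 3 arrays spanned 0.15 log2 units (limma, adjusted p = 1.27e-07). Myo1a encodes a class I myosin best known from the microvilli of the intestinal brush border, and its place in the hair bundle was not examined here. Its L copy, myo1a.L, had 4.54, 4.51 and 5.10, a mean of 4.72 ± 0.33 (SD, n = 3), with replicates 1 and 2 nearly equal and replicate 3 above both. The moderated 95% interval of 4.22 to 5.21 came close to the threshold, and the mean stood 2.15 SD above it (limma, adjusted p = 0.0137). With each replicate left out in turn the adjusted p was 0.0195 to 0.0313, so the call was kept on any 2 arrays. At a threshold of 5 myo1a.L was neither above nor detectably below (adjusted p = 0.245 for a mean below 5), and at a threshold of 6 it was called below.

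Elmod3 encodes an ELMO domain protein that acts on small GTPases of the ARL family and lies in the bundle and the actin plate of rodent hair cells. The S copy, elmod3.S, had 9.60, 9.53 and 9.52, a mean of 9.55 ± 0.04 (SD, n = 3). Its SD was the smallest of the 9, and the moderated 95% interval was 9.39 to 9.71 (limma, adjusted p = 3.93e-07).

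The members differed in how far they varied between arrays, and most varied little. Their SD ran from 0.04 in elmod3.S to 0.33 in myo1a.L with a median of 0.111, beside a median of 0.153 over all frog probe sets called above 4. As the SD of a probe set varies with its mean on these arrays, the frog probe sets were divided into 10 intensity classes of equal size by their mean, and each member was set beside its own class. Of the 9 members 3 had an SD above the median of their class, rdx.S with 64.9% of its class at a lower SD, myo1a.L with 61.4% and triobp.L with 52.0%. In elmod3.S only 5.79% of its class had a lower SD, and in clic5.S 21.3%. The SD of myo1a.L, the largest of the members, was thus of ordinary size for its intensity, with a median of 0.26 in its class and a 90th percentile of 0.75. None of the 9 reached the 90th percentile of its class.

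**Figure D2:**
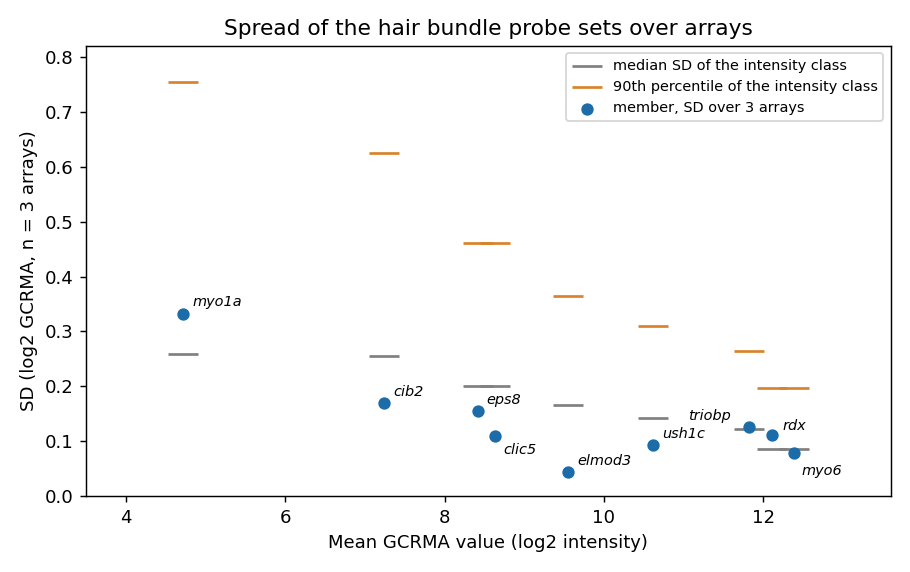
SD over the 3 arrays (vertical axis, log2 GCRMA) against the mean GCRMA value of each hair bundle probe set (blue points), with the median (grey) and 90th percentile (orange) of the SD in its intensity class. Only myo1a, rdx and triobp lie above the grey median mark, and no member reaches the orange mark.

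No array was high or low for all members. Replicate 1 was highest in cib2.S, clic5.S, myo6.L and elmod3.S, replicate 3 in rdx.S, eps8.L, triobp.L and myo1a.L, and replicate 2 in ush1c.S alone. Over the frog probe sets called above 4, replicates 1, 2 and 3 were highest in 31.2%, 36.9% and 31.9%. Apart from myo1a.L, the array of a member farthest from the mean of its probe set lay 0.171 log2 units from it. Replicate 3 of myo1a.L lay 0.38 above its mean.

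Markers of other cell types did move between the arrays. All 20 probe sets of skeletal muscle markers were lowest on replicate 3, with a median deviation of -1.06 log2 units from the mean there, and of 0.46 and 0.58 on replicates 1 and 2. Neuron markers had median deviations of 0.06, -0.38 and 0.45 on replicates 1, 2 and 3, and red blood cell markers -0.05, -0.17 and 0.33. Schwann cell markers, and those of cartilage and bone, had median deviations of 0.03 or less in size on each array, but single markers of both lists were higher on replicate 3. The bone marker bglap.S had 9.54, 9.52 and 11.24, and a probe set of the myelin gene mbp.S had 12.40, 12.34 and 12.98. The other probe set of mbp.S stayed level, at 14.37, 14.35 and 14.37. Of the 8 cartilage and bone probe sets 3 were highest and 5 lowest on replicate 3. For the 6 Schwann cell probe sets these counts were 2 and 1. The array on which myo1a.L was highest was thus the array with the lowest muscle markers, and the part of any of these markers in the value of myo1a.L was not tested. With replicate 3 left out all 9 members were still called above 4, and the mean of myo1a.L was 4.52.

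**Figure D3:**
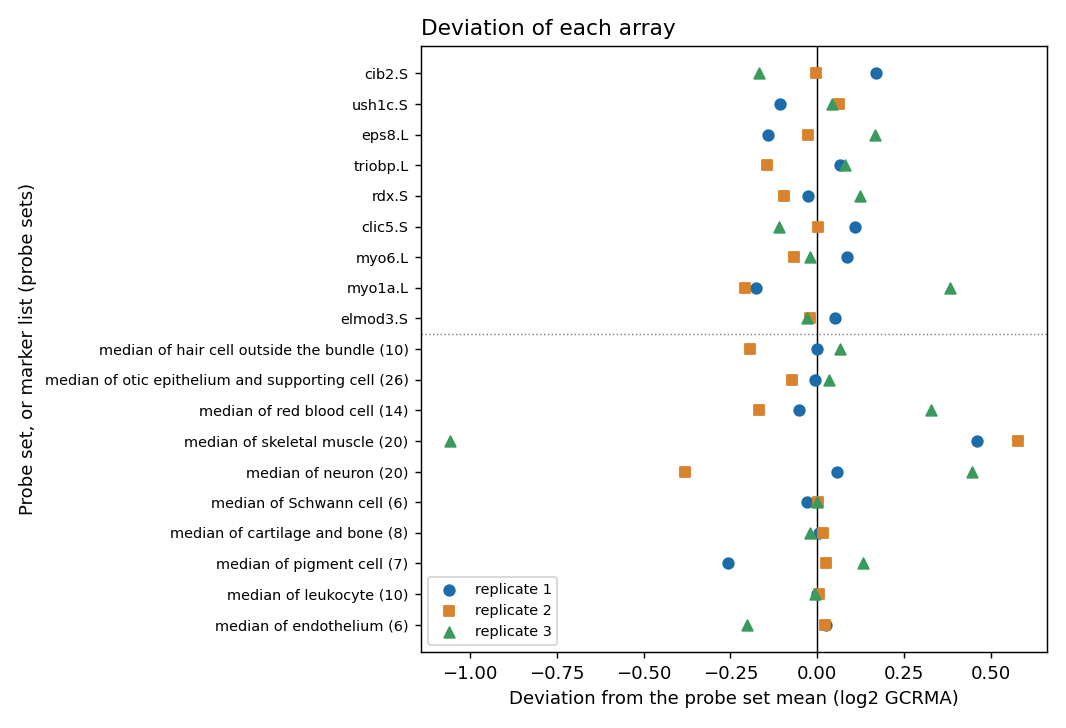
Deviation of each array from the probe set's own mean (horizontal axis, log2 GCRMA) for the 9 hair bundle probe sets (above the dotted line) and, as medians over their probe sets, for lists of cell type markers (below it, with the number of probe sets). The skeletal muscle list lies at -1.06 on replicate 3, while the farthest array of the members other than myo1a.L lies 0.171 from 0.

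Hair cell markers outside the bundle were checked as a label for the tissue. Of 18 listed genes 6 had an annotated probe set, and 5 of these were detected, calb1, kcnma1, pvalb, lhx3 and rbm24. Of these, pvalb and rbm24 are also expressed in muscle and calb1 and pvalb in neurons. Whether any of the 5, kcnma1 and lhx3 included, marks hair cells alone was not examined here. Calb1, the calcium buffer calbindin, was the marker that varied most. The probe set of calb1.L had 8.19, 8.15 and 10.79 and that of calb1.S had 8.09, 7.72 and 9.96, in both cases with replicate 3 far above the others. Kcnma1, the BK potassium channel of electrical tuning, had 6.65, 6.69 and 7.42 and was also highest on replicate 3. In contrast lhx3.L, with 5.29, 4.41 and 4.99, and the detected probe sets of rbm24.S and rbm24.L were highest on replicate 1. Pvalb.S, with 8.88, 8.57 and 9.24, was highest on replicate 3. Of the 10 probe sets of the list, 4 were highest on replicate 1, 2 on replicate 2 and 4 on replicate 3. These counts include probe sets that were not detected. Those highest on replicate 2 were both of barhl1, and an rbm24.L probe set called below 4, at 3.38, was among those on replicate 1. The 2 probe sets of barhl1, a homeobox factor of hair cells, were not detected, at 1.85 each. The markers atoh1, pou4f3, gfi1 and otof matched no probe set by symbol and are not analysed here. Of 13 genes of the otic epithelium and its supporting cells 12 were detected, with pax8 not detected at 1.93. Both counts stand beside 78.7% of all annotated genes and were not tested against that share.

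By annotated symbol, the array gives each member gene a single reading. Of the frog probe sets 16701 have no gene symbol, so further probe sets of these genes, if present, would not be found. All 9 probe sets have names that end in S1_at, with the plain suffix for probes designed against a single transcript and the sense orientation. The same ending is found in 57.2% of all frog probe sets and in 72.9% of those that, like the members, have 1 gene symbol. Plain sense probe sets with another number in the ending were not counted there. Of the 9 members 7 were built on accessions that begin with BC, and the share of such accessions over all probe sets was not counted. Genes with exactly 1 probe set, and that one ending in S1_at, were called above 4 in 72.3% of cases. In the RefSeq gene table of assembly v10.1 another homeolog exists under the same name for ush1c, rdx, eps8, triobp, myo6 and myo1a, and for none of these 6 was a probe set annotated with it. For cib2, clic5 and elmod3 that table holds only the S copy under the name. The table also lists clic5 as an older name of clic4.L, whose probe set had 11.32, 10.82 and 11.22, a mean of 11.12 ± 0.26 (SD, n = 3). It was not counted as a member. Genes with several probe sets show how often readings of 1 gene fell on both sides of 4. They were counted with probe sets of any suffix and orientation, so the shares are not those of probe sets like the members'. Among 3936 genes with 2 or more probe sets, 1132 (28.8%) had probe sets called above 4 and others called below 4, and among 2702 annotated copies with 2 or more the share was 33.8%.

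Close relatives of the members were mostly detected as well, in 13 of 14 genes with a probe set (92.9%), beside 78.7% of all annotated genes. The 14 genes held 22 probe sets, so that some had more than 1 way to be detected, and the difference was not tested. Of the ERM family and its relative merlin, moesin (msn.L) had a mean of 12.64 ± 0.16 and nf2.S had 10.70 ± 0.06 (SD, n = 3 each). Ezrin, known from microvilli, was split, as the ezr.L probe sets had 10.29 ± 0.02 and 1.83 ± 0.004 (SD, n = 3 each), on both sides of the threshold although they carry the same symbol. The probe set at 1.83 has the suffix _x_at and the antisense orientation, while that at 10.29 has the plain suffix and sense orientation. The part of this difference in the split was not tested. Of the relatives of cib2, cib1.L had 12.70 ± 0.05 and cib1.S had 10.62 ± 0.12 (SD, n = 3 each). The clic5 relatives clic1, clic3 and clic4 were detected, clic3.L at 5.88 ± 0.24 (SD, n = 3). Of the relatives of eps8, eps8l1.L had 7.09 ± 0.22 (SD, n = 3), and eps8l3 was split, with 1 probe set at 5.17 and the others at 2.13 and 2.16. The class I myosins myo1c, myo1d and myo1f were detected, myo1c.S at 13.00 ± 0.08 (SD, n = 3). The probe set of myo1f.L, a myosin of leukocytes, had 5.63, 5.70 and 4.59, with replicate 3 lowest where in myo1a.L it was highest. Elmod2.L, a relative of elmod3, had 12.45 ± 0.06 (SD, n = 3). Mprip, a relative of triobp, was the only gene of the list not detected, at 2.18 ± 0.17 (SD, n = 3). Whether probes of these relatives and of the members bind each other's transcripts was not tested.

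Other genes of the hair bundle with a probe set were detected in 11 of 12 cases (91.7%), again beside 78.7% of all annotated genes. The 12 genes held 29 probe sets, and a gene with several has more ways to be detected than a gene with 1. The list had 49 symbols, older names included, and the 12 found were largely actin, actin-binding and myosin genes that many cells use, with actb.L at 14.96 ± 0.04, capzb.S at 13.68 ± 0.02 and twf2.L at 11.25 ± 0.05 (SD, n = 3 each). Gpsm2, which sets the polarity of the bundle, was not detected, at 1.96, 1.96 and 1.95. Fscn1, an actin bundler, was split between its copies, as both probe sets of fscn1.L were detected at 10.50 and 12.65 and that of fscn1.S was called below 4 at 2.26 ± 0.27 (SD, n = 3). Smpx, a small protein of muscle and of the hair cell, varied most in the list, with 7.34, 7.95 and 6.44. It was lowest on replicate 3, the array with the lowest muscle markers, and the part of muscle in its value was not tested. The tip link cadherins, myo7a, the TMC channels and espn matched no probe set by symbol and are not analysed here.

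Brush border genes were of interest because ush1c, eps8 and myo1a also act in the microvilli of intestine and kidney. Of 7 such genes with a probe set 4 were detected (57.1%), beside 78.7% of all annotated genes. With 7 genes this difference rests on few genes, and it was not tested. The detected genes were ezr, baiap2l1, slc9a3r1 and rab11a, with rab11a.S at 13.22 ± 0.23 (SD, n = 3). The undetected genes were vil1, cdhr5 and cobl. Villin, the actin bundler of brush border microvilli, had 1.98 and 2.02 in its vil1.S probe sets, the protocadherin cdhr5.S had 2.03, and the actin nucleator cobl.L had 1.98. Of the detected genes, baiap2l1 was split, with baiap2l1.S at 9.89 ± 0.10 and baiap2l1.L at 5.09 ± 0.13 and 1.95 ± 0.11 (SD, n = 3 each). Ezr, the other gene with probe sets on both sides, also belongs to the preceding lists.

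**Figure D4:**
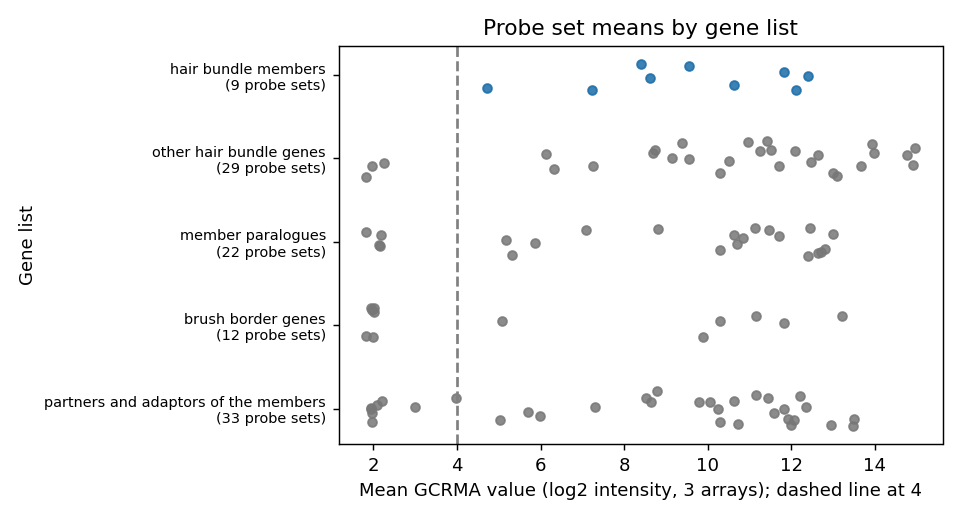
Mean GCRMA value (horizontal axis, log2 intensity over 3 arrays) of every probe set of the hair bundle members (blue) and of 4 gene lists (grey), with the threshold of 4 as a dashed line and vertical scatter added only to separate points. All 9 members lie to the right of the line, while each of the lists has probe sets near 2.

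Raising the threshold left most members in place. A mean of 5, 6 or 7 was reached by 8 of the 9 members, with myo1a.L below, beside 61.4%, 57.8% and 53.1% of all frog probe sets. For genes with exactly 1 probe set these shares were 71.3%, 67.5% and 62.8%. A mean of 8 was reached by 7 members, with cib2.S next to drop out, beside 46.8% of frog probe sets and 56.4% of genes with exactly 1 probe set. A mean of 10 was reached by 4 members, ush1c.S, triobp.L, rdx.S and myo6.L (44.4%), beside 29.1% and 35.3%. A mean of 12 was reached by rdx.S and myo6.L (22.2%), beside 10.2% and 11.6%. Of the 29 probe sets of other hair bundle genes, 62.1% reached 10 and 37.9% reached 12. They belong to 12 genes, several of which were read by more than 1 probe set, while each member was read by 1. As probes also differ in affinity, these shares do not rank that list against the members, and the difference was not tested. With 9 members, chosen with earlier results of these data known, each gene is 11.1% of the share, and no difference in share was tested.

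**Figure D5:**
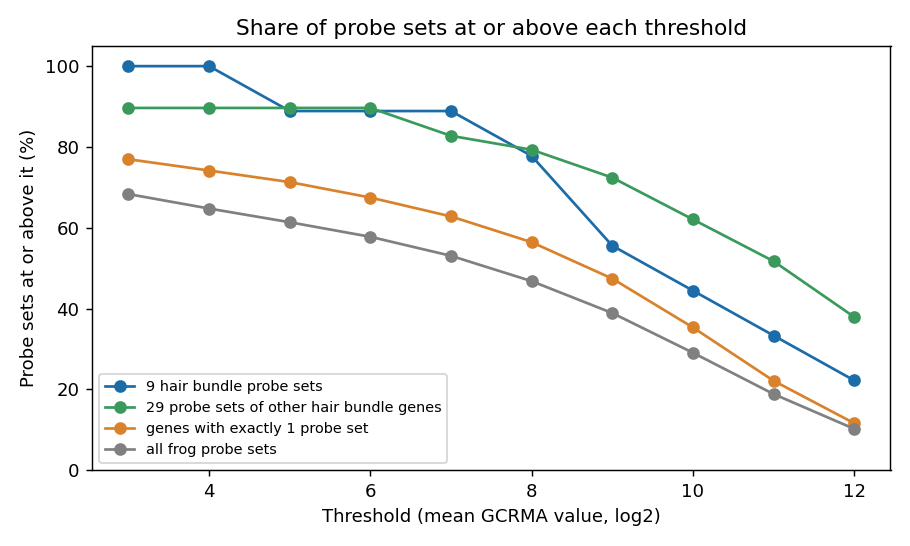
Share of probe sets (vertical axis, %) with a mean GCRMA value at or above each threshold (horizontal axis, log2) for the 9 hair bundle probe sets, the 29 probe sets of other hair bundle genes, genes with exactly 1 probe set, and all frog probe sets. The members lie at 100% at a threshold of 4 and at 44.4% at 10, beside 64.8% and 29.1% of all frog probe sets and 62.1% of the other hair bundle probe sets at 10.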

How the data were processed

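The authors made the deposited log2 values with GCRMA from Affymetrix arrays designed for X. laevis, using 1 array per pool. The software version and annotation behind GCRMA are not given in the sources used here, and scanner files were not used. The table holds 32635 probe sets, of which 160 controls and reporters were left out. Pearson's r between arrays was 0.994 to 0.996. Gene symbols came from the platform annotation, where 15495 frog probe sets have 1 symbol, 279 several and 16701 none. All 9 members were looked up with their gene IDs in RefSeq (assembly v10.1), where no symbol differed.

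Means were tested against 4 with limma 3.58.1 in R 4.3.3 (one-sided moderated test, mean-variance trend), with Benjamini-Hochberg adjustment over 32475 probe sets. A gene was detected if any of its probe sets was. The test was tried on simulated data for 32475 probe sets, where it called 67.0% of those with a true mean of 4.5 and 89.5% of those with 5. Of those with a true mean of 4 it called 3.5% above, and of those with 3.5 it called 0.5% above. Noise was drawn independently for each probe set, so shifts shared by the probe sets of an array were not simulated. Python 3.11.15 was used for counts. The number of arrays limits the precision. The 3 pools are separate animals of 1 group. The p-values test each mean against the threshold, given the spread over the pools moderated over all frog probe sets. With 1 array per pool, spread between pools and spread between arrays cannot be told apart.

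Members and gene lists were chosen with earlier results of these data known, and lists are described by counts with no set test. Every member probe set was named, and of each list the genes with the highest and lowest value, a rule for naming that ranks no genes, and those with probe sets on both sides of 4. For markers of other cells the same was done in the closing section. Further genes were named as examples after their values were seen. Alternatives changed the threshold, the test, the normalization, filters, symbol matching and the arrays used. RNA-Seq reads were not used here.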

Additional observations from a re-analysis of the deposited data

How the results depend on the processing

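All 9 members stayed above 4 under every alternative that kept that threshold, namely no mean-variance trend, quantile normalization, median centring, a filter on means under 3, controls kept in the fit, probe sets with the suffix _s_at or _x_at left out, other symbol matching, calls without a test, and each replicate left out. The highest adjusted p in these limma fits was 0.0313 for myo1a.L and 0.000575 for any other member. Several of these could not move a member's mean. Median centring leaves the mean over the arrays unchanged, and neither the filter on means nor that on suffixes removed a member. They could change only the moderated spread and the adjustment. Quantile normalization, of values already normalized across the arrays, moved a member's mean by at most 0.0091. Leaving out an array moved it by at most 0.19, in myo1a.L. With a threshold of 6, 1 member was called below it, myo1a.L, against 0 below a threshold of 4. With older gene names included, clic4.L joined as a probe set of clic5, so that 10 of 10 probe sets were above 4, and atp2b4.L and limd2.L joined the other hair bundle genes through old names, giving 13 of 14. No paired analysis was possible because the arrays form 1 group. Background correction could not be varied without scanner files.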

Other observations

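Partners and adaptors of the hair bundle proteins were detected in 13 of 16 genes with a probe set (81.3%), near the 78.7% of all annotated genes. The 16 genes held 33 probe sets, and a gene with several has more ways to be detected than a gene with 1. The ERM-binding scaffold slc9a3r1 had 11.16 ± 0.11 in its L copy and 11.83 ± 0.06 in its S copy (SD, n = 3 each), and arl2.L and arl3.S, GTPases of the ARL family, had 11.43 ± 0.22 and 11.60 ± 0.02 (SD, n = 3 each). Of the cargo adaptors of myo6, dab2 was detected, with dab2.S at 13.50 ± 0.05 (SD, n = 3), while tax1bp1 and tom1 were not detected, at 1.95 and 1.96. Trio, which gave triobp its name as a binding protein, was not detected, at 2.08 ± 0.13 (SD, n = 3). Gipc1 and abi1, which act with myo6 and eps8, had probe sets on both sides of 4, at 10.23 and 1.97 and at 8.52 and 2.99. Optn and actn4 also had probe sets on both sides, with optn.S at 2.21 and actn4.S at 1.95 on the low side. In optn.S the detected probe set had 7.70, 7.72 and 6.47 in replicates 1, 2 and 3.

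Markers of the other cells in the dissected ear were detected in 10 of 10 genes for skeletal muscle, 9 of 11 for neurons, 8 of 11 for red blood cells, 6 of 7 for cartilage and bone, 4 of 6 for leukocytes, 3 of 4 for pigment cells, 3 of 3 for endothelium and 2 of 3 for Schwann cells. Among all annotated genes the share was 78.7%. The red blood cell, leukocyte, pigment cell and Schwann cell lists lay below that share and the other lists above it, and no list was tested against it. Detected probe sets included those of ckm.L (12.31), isl1.S (13.79), hba3.L (15.21), col9a1.L (14.93), cd74.S (12.38), pmel-a (12.29), egfl7.L (12.46) and pmp22.L (14.64) for these cells, acta1.S (7.47) for muscle, pecam1.L (7.31) for endothelium, and otos.L (15.02) for the otic epithelium. Not detected were elavl3.L (2.09), gata1.L (4.05), sp7.L (1.81), ptprc.L (2.003), mitf.L (2.10) and egr2.L (1.90). The other undetected genes were syt1, mpo, hba1 and rhag, of which hba1.S had an SD of 2.77 over the arrays. Probe sets on both sides of 4 were seen for tnni2, actn3, stmn2, ina, isl1, ntrk2, egfl7, rbm24 and pax2.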
